A study of Mus musculus with 167 samples.

Results

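Cyp2c55, Cyp2c65 and Cyp2c66 are 3 neighbouring mouse cytochrome P450 genes of the Cyp2c cluster on chromosome 19. They were selected on their response to phenobarbital in these livers, and on the raised levels in untreated knockout and humanized livers, so those differences are given below as a description with no test. Each gene was to be represented by the probe set with the highest mean over all arrays among those that the platform annotation assigns to it alone. Of the 3 genes, 2 had such a probe set among the 18194 genes with one. Cyp2c55 was read by probe set 1419582_at and Cyp2c65 by 1429994_s_at, each the only one for its gene, and Cyp2c66 was not analysed here. The suffix of the Cyp2c65 probe set marks probes that match more than 1 transcript, so its signal may include that of a near-identical gene. Both measured genes were among the 12623 genes bright enough to be tested, a limit that asked for a value above the array median on 3 or more arrays. Cyp2c55 was above the median on all 167 arrays and Cyp2c65 on 47, which were the treated humanized and wild-type livers of the dosing days. Cyp2c65 thus entered the tests only through the livers where it was high, and every other sample lay below the array medians of 5.146 to 5.231, where differences are compressed. Comparisons among those samples are given as values with no p.

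Enzymes of the Cyp2c subfamily sit in the endoplasmic reticulum and oxidise drugs and fatty acids, arachidonic acid among them. CAR, encoded by Nr1i3, and PXR, encoded by Nr1i2, are nuclear receptors that sense foreign chemicals in hepatocytes and switch on P450, transferase and transporter genes, and phenobarbital is the classic activator of CAR. Cyp2c55 is known as a phenobarbital-inducible enzyme that hydroxylates arachidonic acid, and mouse Cyp2c65 and Cyp2c66 are known mostly from the stomach and intestine.

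Liver transcripts of male C57BL/6 mice were measured on Affymetrix arrays, 1 array per animal, in 3 genotypes, each with 2 arms and 6 days. The mice were humanized, with human CAR and PXR in place of the mouse receptors, or knockout for both receptors, or wild type, and the labels give an age of 9 to 11 weeks for all of them, from day 1 to day 119, which the growth text describes as the age at the start; the treatment text also names another starting age. One arm of each genotype drank water with phenobarbital and the other drank untreated water, and livers were taken on days 1, 7, 14, 28 and 91 of a 13-week treatment and on day 119, after 4 weeks without the drug. The dose of 0.05% (wt/vol) rests on the shared treatment text, which also lists lower concentrations, and no animal's own label gives it. Arrays numbered 27 in the humanized phenobarbital arm and 29 in its control arm, 28 and 27 in the knockout arms, and 29 and 27 in the wild-type arms, with 3 to 5 in each of 36 groups. Values are log2 expression and differences are log2 differences, phenobarbital minus control unless another pair is named, with the standard error after ± unless SD is written. Adjusted p-values are limma's, two-sided, and a gene passed at an adjusted p under 0.05.

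Animals 6026 and 6030 of the treated humanized day 119 group had nearly identical arrays and were averaged, which left 3 samples there. Arrays 4019 and 4024 of treated knockouts on days 28 and 91 were also nearly identical despite their different labels and were kept as labelled. Nr1i3 averaged 5.07 ± 0.15 in humanized, 4.95 ± 0.15 in knockout and 8.34 ± 0.27 in wild-type livers (SD, n = 55, 55 and 56), and Nr1i2 averaged 3.72 ± 0.18, 3.63 ± 0.14 and 7.55 ± 0.25 in the same order. The human receptors were not analysed here. The mean of 7 hepatocyte markers lay between 13.5 and 13.9 on every array. In bulk liver, fewer cells of a type and less RNA per cell cannot be told apart.

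The 250 bases before the annotated start of each gene are printed because the genes are neighbours, and the 2 that were measured responded to the same treatment. The sequences are RefSeq's for build GRCm38.p6, all on the plus strand of chromosome 19, 5′ to 3′, with the motif TATAAA in capitals. They come from chr19:39006769-39007018 for Cyp2c55, chr19:39060756-39061005 for Cyp2c65 and chr19:39113648-39113897 for Cyp2c66.
Cyp2c55: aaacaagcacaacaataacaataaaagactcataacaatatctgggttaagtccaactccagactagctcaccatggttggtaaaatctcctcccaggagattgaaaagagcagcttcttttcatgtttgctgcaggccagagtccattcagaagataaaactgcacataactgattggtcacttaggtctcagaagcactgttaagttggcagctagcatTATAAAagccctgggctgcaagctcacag
Cyp2c65: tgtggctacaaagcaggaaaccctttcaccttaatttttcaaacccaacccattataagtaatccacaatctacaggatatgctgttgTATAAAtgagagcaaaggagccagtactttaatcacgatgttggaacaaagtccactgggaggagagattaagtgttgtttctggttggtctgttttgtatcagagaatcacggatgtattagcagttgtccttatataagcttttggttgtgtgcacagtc
Cyp2c66: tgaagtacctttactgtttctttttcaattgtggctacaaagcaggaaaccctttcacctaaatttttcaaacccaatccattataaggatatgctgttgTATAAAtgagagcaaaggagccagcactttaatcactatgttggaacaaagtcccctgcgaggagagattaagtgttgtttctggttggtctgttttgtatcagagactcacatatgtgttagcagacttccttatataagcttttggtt
TATAAA began 29 bases before the start in Cyp2c55, 162 before it in Cyp2c65 and 150 before it in Cyp2c66, and was present on either strand in 12.4% of 32851 such windows of 27025 genes. Only this exact motif was searched for, so TATA-like variants, such as tatataag near the end of the Cyp2c65 and Cyp2c66 windows, are not marked. The Cyp2c65 and Cyp2c66 windows were identical at 208 of 221 aligned positions (94.1%). Cyp2c55 matched Cyp2c65 at 155 of 216 aligned positions (71.8%) and Cyp2c66 at 148 of 203 (72.9%). Neither AGGTCA nor AGTTCA, the hexamers that CAR and PXR bind in pairs, was found on either strand of the 3 windows, against 14.0% and 11.8% of all windows. No pair of these hexamers in the arrangements named DR4, DR3 or ER6 was found either, and 0.0244%, 0.0122% and 0.0091% of all windows held one. These shares describe 250 bases only, and nothing was read from sequence further away.

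Both measured genes were higher with phenobarbital in humanized and wild-type livers on every dosing day, with no overlap between any treated and any control liver of the same genotype and day. The share of all genes without overlap is not given, here or in the comparisons below, so nothing is read from a separation. Over the 5 dosing days, Cyp2c65 was higher by 4.39 ± 0.074 in humanized livers and 5.67 ± 0.075 in wild-type livers, the second-largest difference of all 12623 genes in each. Cyp2c55 was higher by 2.84 ± 0.072 in humanized livers, where it ranked 5 of 12623, and by 4.39 ± 0.073 in wild-type livers, where it ranked 3. These are the differences on which the genes were selected, and nothing is read from the shares of all genes that passed, which were 14.9% higher and 17.5% lower in humanized livers and 11.8% higher and 19.7% lower in wild-type livers. The dosing-day means rest on 23 treated and 24 control humanized samples and on 24 treated and 22 control wild-type samples.

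**Figure D1:**
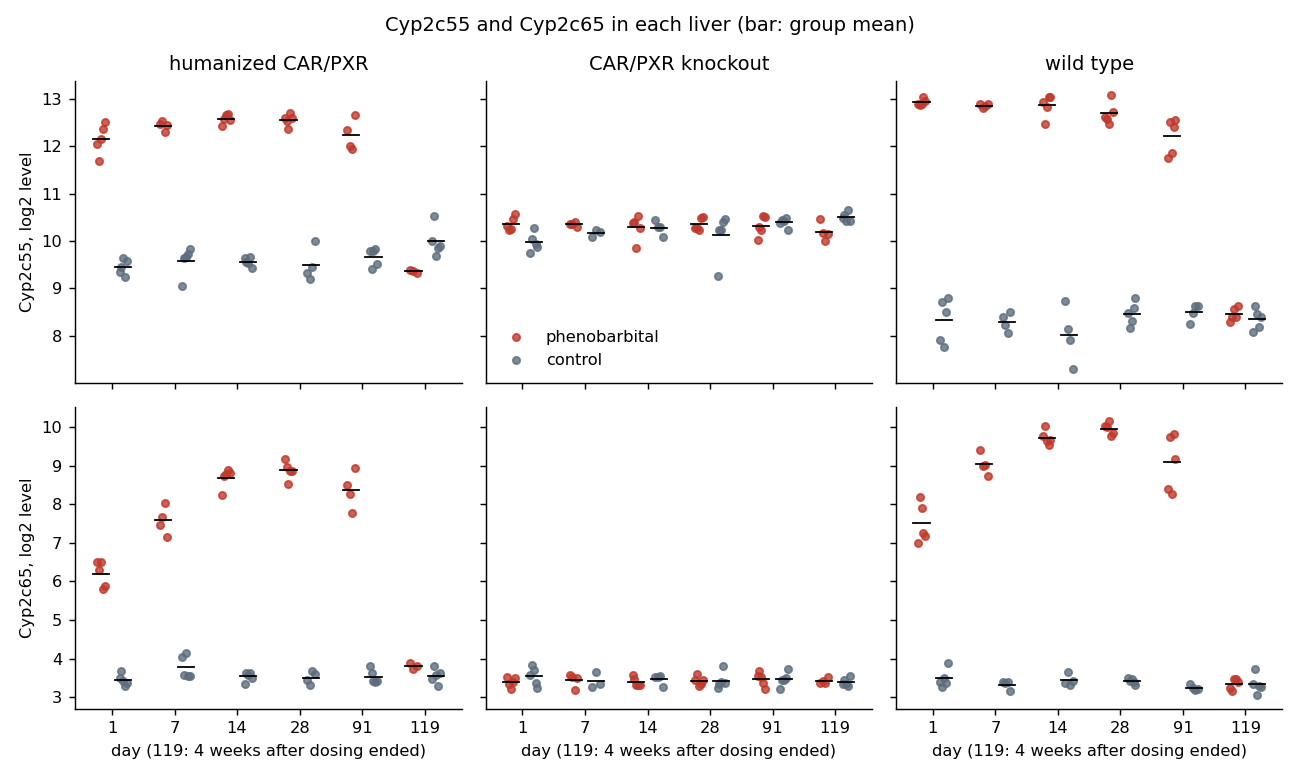
Log2 level of Cyp2c55 (top row) and Cyp2c65 (bottom row) in each liver, by day, for humanized, knockout and wild-type mice. Red points are phenobarbital livers, grey points are controls and black bars are group means. Treated humanized and wild-type livers stand above their controls on days 1 to 91, while on day 119 they do not, and untreated Cyp2c55 is higher in knockout and humanized than in wild-type livers.

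Cyp2c65 was near the lower end of the array scale without the drug and took weeks to reach its peak. On day 1 the treated wild-type livers had 6.98, 8.19, 7.89, 7.26 and 7.18, against 3.41, 3.26, 3.51, 3.37 and 3.89 in their controls. By day 28 the treated wild-type livers had 10.02, 9.99, 10.17, 9.76 and 9.83, against 3.50, 3.42, 3.48, 3.39 and 3.33 in their controls. Every treated liver of day 28 was thus above every treated liver of day 1, while every control of both days stayed below the array medians. The difference on days 1, 7, 14, 28 and 91 was 4.01, 5.70, 6.28, 6.53 and 5.83, which on the linear scale is 16.2, 52.1, 77.9, 92.5 and 56.9-fold. Because the control values lay below the array medians, the folds may understate the change.

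The humanized livers followed the same course for Cyp2c65 at a lower level. On day 1 the treated livers had 6.52, 6.30, 6.51, 5.81 and 5.88, against 3.49, 3.67, 3.41, 3.29 and 3.37 in their controls. By day 28 the treated livers had 9.18, 8.97, 8.51, 8.87 and 8.86, against 3.44, 3.31, 3.68 and 3.60 in their controls. The arms were well apart on both days, and the treated livers of day 28 all lay above those of day 1. The difference on days 1, 7, 14, 28 and 91 was 2.76, 3.81, 5.15, 5.37 and 4.84, or 6.76, 14.0, 35.6, 41.4 and 28.6-fold.

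Cyp2c55 in wild-type livers instead had its highest treated group mean on day 1 (12.93). Treated wild-type livers then had 12.89, 12.88, 12.89, 13.05 and 12.95, against 7.91, 8.70, 7.76, 8.50 and 8.79 in their controls. On day 91 they had 11.76, 12.51, 11.85, 12.42 and 12.56, against 8.25, 8.47, 8.63 and 8.63 in their controls. All 5 treated livers of day 91 were below all 5 of day 1, and animals 2021 and 2023 were lowest. For days 1, 7, 14, 28 and 91 the wild-type difference was 4.60, 4.56, 4.84, 4.23 and 3.72, or 24.2, 23.6, 28.7, 18.8 and 13.2-fold.

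In humanized livers the treated group means of Cyp2c55 were 12.16, 12.44, 12.58, 12.56 and 12.24 on days 1, 7, 14, 28 and 91, so that day 1 was lowest. Treated livers of day 1 had 12.05, 11.69, 12.16, 12.37 and 12.51, against 9.34, 9.46, 9.65, 9.23 and 9.58 in their controls. On day 91 treated livers had 12.34, 12.00, 11.94 and 12.67, against 9.78, 9.40, 9.79, 9.84 and 9.51 in their controls. The treated livers of the 2 days overlapped. The difference on days 1, 7, 14, 28 and 91 was 2.71, 2.85, 3.02, 3.06 and 2.57, or 6.52, 7.23, 8.09, 8.32 and 5.95-fold.

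**Figure D2:**
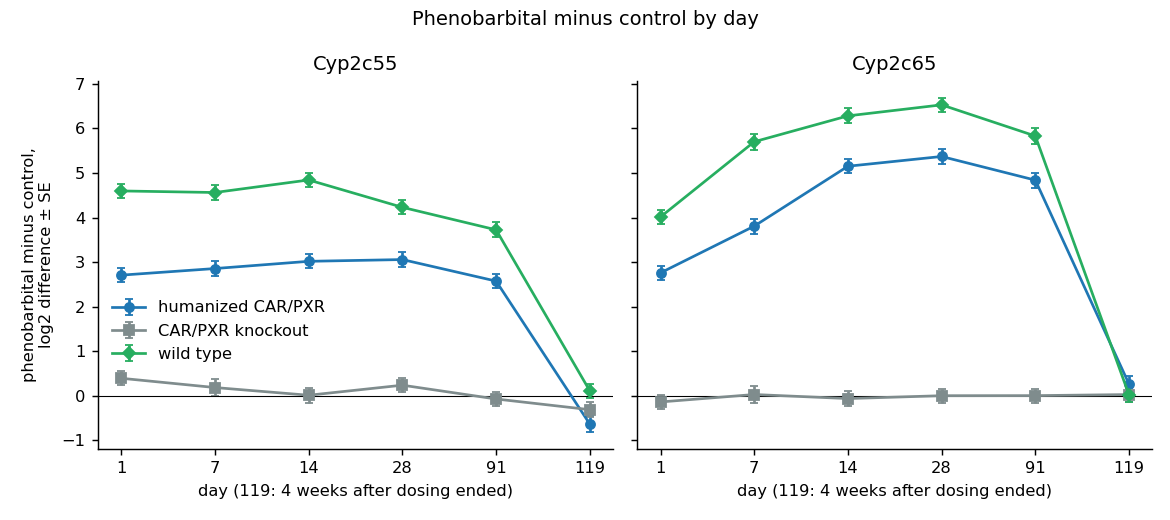
Phenobarbital minus control (log2 difference, points) with its standard error (bars) on each day, for Cyp2c55 (left) and Cyp2c65 (right) in humanized, knockout and wild-type livers. Cyp2c65 climbs from day 1 to day 28 in humanized and wild-type livers, Cyp2c55 starts near its highest difference, the knockout differences on dosing days lie between −0.14 and 0.39, and on day 119 the differences lie between −0.64 (humanized Cyp2c55) and 0.26 (humanized Cyp2c65).

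The change of the effect over time was tested as the difference of day 91 minus that of day 1. The selection did not use this change itself but did use the single-day differences that make it up. The p-values are therefore not independent of the selection. Cyp2c65 also entered the tests only through the treated livers of the dosing days, and its controls in this contrast lay below the array medians. For Cyp2c65 the effect grew by 2.08 ± 0.233 in humanized livers (adjusted p = 1.11e-11) and by 1.82 ± 0.233 in wild-type livers (adjusted p = 3.15e-09). Of all tested genes, 1.39% passed higher and 0.349% lower in humanized livers, and 0.23% higher and 0.206% lower in wild-type livers. The Cyp2c65 call in wild-type livers was lost when the fit held only the compared groups (1.82, adjusted p = 0.0716). For Cyp2c55 the effect shrank by less than a log2 unit in wild-type livers (−0.87 ± 0.227, adjusted p = 0.0465), and in humanized livers it did not pass (−0.13, 95% interval −0.58 to 0.32, adjusted p = 0.835). The wild-type Cyp2c55 call sat at the threshold and was lost on leaving out any of 11 animals singly, when the difference ranged from −0.89 to −0.73. Whether the 2 genotypes differ in this change was not tested.

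**Figure D3:**
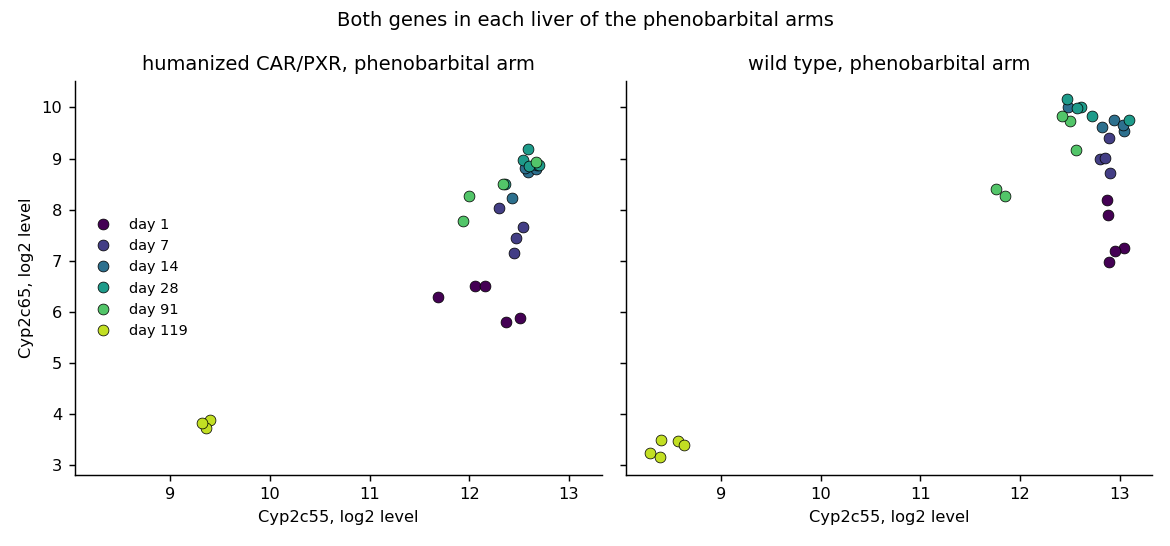
Cyp2c65 against Cyp2c55 (log2 levels) in each phenobarbital-arm liver of humanized (left) and wild-type (right) mice, coloured by day. From day 1 to day 28 the points move up along the Cyp2c65 axis with little shift along the Cyp2c55 axis, and on day 119 they lie at the lower left.

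Treated livers also differed by genotype in the level they reached. Over the dosing days Cyp2c65 in treated livers ran from 5.81 to 9.18 with a median of 8.28 in 23 humanized samples, against 6.98 to 10.17 with a median of 9.47 in 24 wild-type samples. Set day by day, the treated humanized level was lower by 1.11 ± 0.074 (adjusted p = 1.15e-27), which is 0.463 of the wild-type level. Cyp2c55 in treated livers ran from 11.69 to 12.70 with a median of 12.47 in humanized samples, against 11.76 to 13.09 with a median of 12.84 in wild-type samples, and the difference was −0.32 ± 0.072 (adjusted p = 0.000232). Of all tested genes 13.7% passed higher and 13.4% lower in this comparison, so a pass as such was common. The selection did not compare treated genotypes but used these same treated livers, so the p-values are not independent of it. Cyp2c65 entered the tests only through these livers. Without day 1, the Cyp2c55 difference was −0.21 and no longer passed (adjusted p = 0.0527). By day, the treated Cyp2c55 means of humanized minus wild-type livers were −0.77, −0.42, −0.28, −0.14 and 0.02 on days 1, 7, 14, 28 and 91, so the averaged difference rests mostly on the first days and was about 0 on day 91. For Cyp2c65 they were −1.30, −1.45, −1.03, −1.07 and −0.71.

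That untreated level is the second pattern for which the genes were chosen, and it was seen mainly in Cyp2c55. Control Cyp2c55 over all 6 days ran from 9.06 to 10.53 with a median of 9.64 in 29 humanized livers, from 9.26 to 10.66 with a median of 10.29 in 27 knockout livers, and from 7.29 to 8.80 with a median of 8.40 in 27 wild-type livers. Neither altered genotype overlapped with the wild type. Cyp2c55 was chosen on this level, and the share of all genes without overlap is not given. Nothing is read from the separation. Controls were higher than wild type by 1.30 ± 0.066 in humanized livers (2.46-fold) and by 1.92 ± 0.068 in knockout livers (3.78-fold), which ranked 7 and 2 among all rises of the 12623 genes. Control Cyp2c65 had a median of 3.55 in humanized, 3.44 in knockout and 3.37 in wild-type livers, with overlapping ranges, and differed from wild type by 0.18 ± 0.068 and 0.08 ± 0.070. The shares of all tested genes that passed were 11.6% higher and 16.5% lower for humanized controls and 11.5% higher and 10.9% lower for knockout controls, from which nothing is read about the selected genes.

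The comparison between the altered genotypes was not part of the selection, although it uses the same control arrays. Untreated Cyp2c55 was lower in humanized than in knockout livers by 0.62 on the log2 scale (−0.62 ± 0.067, adjusted p = 2.87e-13). Cyp2c65 differed by 0.11 ± 0.068 between these controls, all of them below the array medians. In this comparison 6.82% of all tested genes passed higher and 9.82% lower. Markers of pancreatic acinar cells also differed between the controls, in the opposite direction to Cyp2c55. All 6 tested ones were lower in humanized than in wild-type controls (median −1.33), where 16.5% of all tested genes were lower. Of the 6 markers, 1 was lower in knockout than in wild-type controls (median −1.02), where 10.9% of all were lower. Their mean level ran from 5.27 to 10.13 in humanized, 5.09 to 10.60 in knockout and 5.33 to 11.65 in wild-type controls. Without the 29 samples whose acinar mean was above 7, a limit set after the values were seen, the Cyp2c55 baseline differences were 1.34 for humanized and 1.92 for knockout livers. The part of acinar cells in these differences was not tested.

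The untreated level of Cyp2c55 also differed between days. Averaged over the 3 genotypes, controls of day 119 were higher than controls of day 1 by 0.36 ± 0.090 (adjusted p = 0.000889), a comparison in which 13.8% of all tested genes passed higher and 14.1% lower. Day 119 and day 1 group means were 9.996 and 9.45 in humanized, 10.51 and 9.98 in knockout and 8.35 and 8.33 in wild-type controls, and whether the genotypes differ in this was not tested. The Cyp2c65 controls, all below the array medians, differed by −0.06.

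In knockout livers Cyp2c55 did not pass the test for phenobarbital, and Cyp2c65 stayed below the array medians in both arms. Cyp2c55 over the dosing days ran from 9.85 to 10.56 with a median of 10.34 in 24 treated livers, against 9.26 to 10.49 with a median of 10.24 in 22 controls. The 2 arms overlapped on every dosing day except day 7, when 4 treated livers had 10.36, 10.36, 10.41 and 10.30 and 3 controls had 10.09, 10.24 and 10.20. Nothing is read from that separation, since the share of all genes without overlap is not given. The largest single-day difference was on day 1 (0.39, 95% interval 0.08 to 0.70, 1.31-fold), when the arms overlapped, and the other dosing days lay between −0.08 and 0.23. The dosing-day difference was 0.15 ± 0.074 (95% interval 0.00 to 0.29, unadjusted p = 0.0472, adjusted p = 0.15), and without arrays 4019 and 4024 it was 0.13 (adjusted p = 0.231). Cyp2c65 ran from 3.20 to 3.68 in treated and from 3.20 to 3.83 in control livers, a difference of −0.04 ± 0.075. Of all tested genes 8.64% passed higher and 11% lower in the knockout.

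On day 119, after 4 weeks without the drug, Cyp2c65 was below the array medians in every liver. It was 3.88, 3.73 and 3.82 in humanized livers of the phenobarbital arm, against 3.47, 3.80, 3.58, 3.29 and 3.63 in humanized controls. In wild-type livers it was 3.24, 3.16, 3.47, 3.49 and 3.40, against 3.34, 3.73, 3.06, 3.29 and 3.26 in controls. The arms overlapped in both genotypes, with differences of 0.26 ± 0.184 in humanized and 0.02 ± 0.160 in wild-type livers, and the knockout difference was 0.02 ± 0.169.

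Cyp2c55 on day 119 was 9.40, 9.36 and 9.31 in humanized livers of the phenobarbital arm, against 10.01, 10.53, 9.69, 9.85 and 9.90 in humanized controls. Here the arms did not overlap, and the livers that had received the drug were lower. The groups held 3 and 5 samples, and the share of all genes without overlap is not given here, so nothing is read from the separation. The difference of −0.64 ± 0.180 (95% interval −0.995 to −0.283) had an unadjusted p of 0.000525 but an adjusted p of 0.1 over all genes, of which 0.214% passed in either direction. Of 16 alternatives, 14 did not pass either, with adjusted p up to 0.463. The difference passed with the near-identical animals 6026 and 6030 counted apart (−0.63, adjusted p = 0.0319), which treats them as separate samples. It also passed without the samples high in acinar markers (−0.72, adjusted p = 0.0357), a limit set after the values were seen. In wild-type livers the values were 8.29, 8.39, 8.57, 8.40 and 8.63, against 8.07, 8.63, 8.47, 8.18 and 8.39 in controls, a difference of 0.11 ± 0.156 (−0.20 to 0.42, unadjusted p = 0.494, adjusted p = 0.999). In knockout livers it was −0.32 ± 0.165 (−0.64 to 0.01, adjusted p = 0.726). Of all tested genes 0.0238% passed in wild-type and 0.111% in knockout livers on this day.

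The other Cyp2c genes that were measured moved less, and not all in one direction. In RefSeq's gene order the cluster runs Cyp2c55, Cyp2c65, Cyp2c66, Cyp2c29, Cyp2c39, Cyp2c38, Cyp2c67, Cyp2c68, Cyp2c40, Cyp2c69, Cyp2c37, Cyp2c54, Cyp2c50 and Cyp2c70. Of these, Cyp2c66, Cyp2c67, Cyp2c40 and Cyp2c69 were not analysed here. With Cyp2c23, 9 other Cyp2c genes were tested, of which in wild-type livers 5 rose with phenobarbital and 2 fell (median 0.28, against −0.01 for all genes), where 11.8% of all tested genes rose and 19.7% fell. In humanized livers 4 rose and 3 fell (median 0.09, against 0.00 for all genes), where 14.9% of all rose and 17.5% fell. In knockout livers 1 rose and none fell, namely Cyp2c39 (0.15, adjusted p = 0.0248), a P450 that hydroxylates retinoic acid, where 8.64% of all rose and 11% fell.

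The largest changes among them were in the arachidonic and linoleic acid oxidising enzymes at the far end of the cluster. Cyp2c54 rose by 1.27 ± 0.058 in humanized livers (adjusted p = 2.38e-43) and by 1.38 ± 0.058 in wild-type livers (adjusted p = 1.19e-46). Cyp2c37 rose by 1.02 in humanized and 1.34 in wild-type livers, and Cyp2c50 by 0.70 and 0.68. Cyp2c29, the next measured neighbour of Cyp2c65, rose by 0.24 in humanized and 0.62 in wild-type livers. Cyp2c68 fell by 0.45 in humanized and 0.40 in wild-type livers. Cyp2c39 rose by 0.28 in wild-type livers and did not pass in humanized livers (0.09, adjusted p = 0.15). On the other side of Cyp2c55, the chromatin remodeller gene Hells differed by 0.21 in humanized and 0.11 in wild-type livers.

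At baseline these genes went both ways, with smaller differences than Cyp2c55. Of the 9, 4 were higher and 3 lower in humanized than in wild-type controls (median 0.08; 11.6% of all tested genes were higher and 16.5% lower), and 4 were higher and 4 lower in knockout than in wild-type controls (median 0.07; 11.5% of all higher and 10.9% lower). Both comparisons share the wild-type controls. The next measured Cyp2c genes after Cyp2c65 were higher in both: Cyp2c29 by 0.35 in humanized and 0.14 in knockout controls, Cyp2c39 by 0.30 and 0.20, and Cyp2c38, named after its values were seen, by 0.41 and 0.56. Hells, on the other side of Cyp2c55, was not higher, with −0.02 in humanized and −0.08 in knockout controls. Against wild-type controls, Cyp2c54 differed by −0.40 in humanized and −1.17 in knockout controls, and Cyp2c50 by −0.19 and −0.86, all of which passed. Cyp2c37 differed by 0.08 in humanized controls (adjusted p = 0.31) and fell by 0.95 in knockout controls. These 3 genes thus stood lower without the receptors, where Cyp2c55 stood higher, and their dosing-day differences in the knockout did not pass (0.10, 0.06 and 0.02, with adjusted p of 0.232, 0.19 and 0.904).

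**Figure D4:**
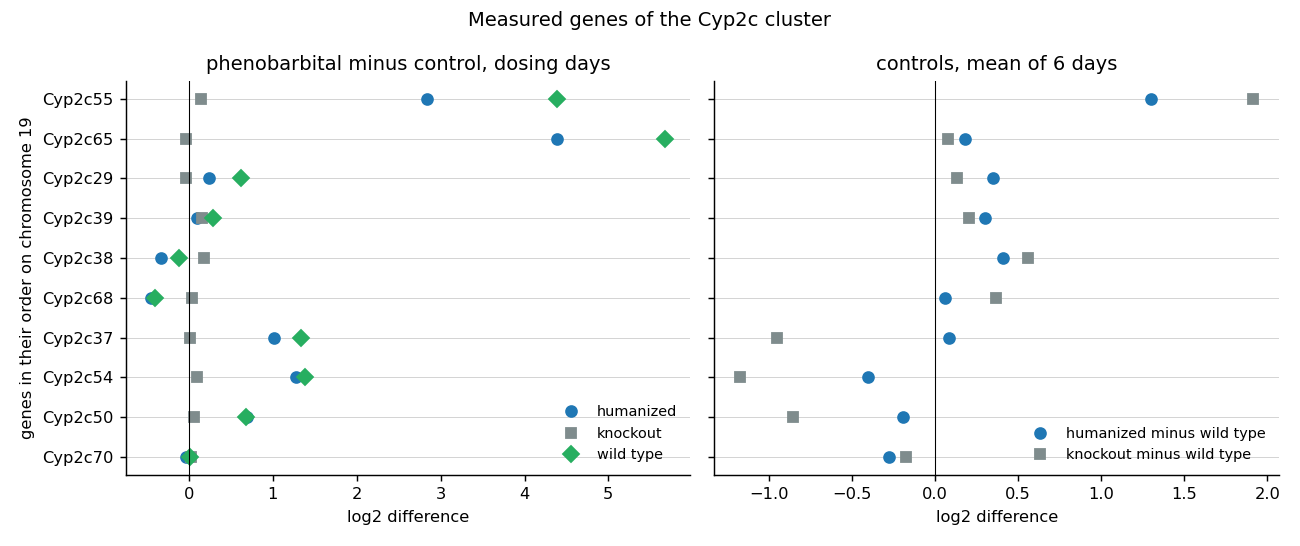
Log2 differences of the measured genes of the Cyp2c cluster, listed in chromosomal order. The left panel shows phenobarbital minus control over the dosing days in humanized, knockout and wild-type livers, where Cyp2c55 and Cyp2c65 stand apart from the others. The right panel shows humanized and knockout controls minus wild-type controls, where Cyp2c55 is highest and Cyp2c37, Cyp2c54 and Cyp2c50 are lowest in the knockout.

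Other known targets of CAR and PXR give the setting. Of 36 tested, 34 rose and 1 fell in humanized livers over the dosing days (median 0.50), 16 rose and 1 fell in knockout livers (median 0.09), and 35 rose and none fell in wild-type livers (median 0.66). The shares of all tested genes that rose were 14.9%, 8.64% and 11.8% in the same order. Cyp2b10, the usual readout of CAR, rose by 4.71 ± 0.088 in humanized and 6.50 ± 0.089 in wild-type livers, and in knockout livers it did not pass (0.17, adjusted p = 0.164). Its untreated level was higher in humanized than in wild-type controls by 1.53 but fell by 1.05 in knockout controls. Of the 36 targets, 24 were higher and 1 lower in humanized than in wild-type controls, and 18 were higher and 3 lower in knockout than in wild-type controls, where 11.6% and 11.5% of all tested genes were higher. Gstm3 was higher by 1.07 in humanized and 0.98 in knockout controls and Abcc4 by 0.95 and 0.41, so a raised untreated level in both altered genotypes was not particular to Cyp2c55. In wild-type livers Cyp2b9 rose by 3.07, the glutathione transferase Gstm3 by 3.01, the sulfotransferase Sult3a1 by 2.94, Cyp2b13 by 1.93 and the efflux transporter Abcc4 by 1.81. Cyp3a11, the usual readout of PXR, rose by 0.14 in humanized, 0.05 in knockout (adjusted p = 0.0145) and 0.12 in wild-type livers. Its control means of 14.43, 14.28 and 14.29 were close to the highest value of any array, 15.07, so the size of its response is poorly read.

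The genes whose 36 group means followed each member most closely were found by Pearson correlation, as a description over groups that share the treatment. For Cyp2c55 they were Gstm3 (r = 0.957), 4931406C07Rik (0.941), the formin gene Inf2 (0.932) and the glutathione transferases Gstm2 (0.917) and Gstm4 (0.911). For Cyp2c65 they were Gm10419 (0.968), the peptidase gene Pepd (0.964), Ginm1 (0.963), the matricellular protein gene Ccn4 (0.962) and Mfsd11 (0.955). Between Cyp2c55 and Cyp2c65 themselves r was 0.871, and no gene stood in both lists.

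Because Cyp2c65 and Cyp2c66 are known from the gut, markers of intestinal epithelium were set beside the results. Of 10 markers, 5 were tested, and with phenobarbital none rose and 3 fell in humanized livers, none rose and 2 fell in knockout livers, and none rose and 3 fell in wild-type livers, where 17.5%, 11% and 19.7% of all tested genes fell. The mean over the 10 markers ran from 5.84 to 6.14 in the humanized and from 5.84 to 6.16 in the wild-type phenobarbital arm, against 5.88 to 6.27 and 5.89 to 6.28 in the controls. Vil1, Cdx1, Muc2, Krt20 and Cdh17 were below the brightness limit, with medians between 3.01 and 4.56 over all samples. The tested markers had medians of 4.98 for Cdx2, 5.73 for Tff3, 6.27 for Lgals4, 10.58 for Fabp2 and 12.86 for Pigr. The part of intestinal cells in the Cyp2c65 signal was not tested.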

How the data were processed

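Liver RNA of 167 mice was measured on Affymetrix arrays of 45101 probe sets. RMA produced the values, per the submitters' processing notes; its version is not given in the sources used here. As deposited, values are log2 expression and lie between 2.11 and 15.07. Groups, days and animal numbers came from the labels. The platform annotation gave 1 gene symbol to 34958 probe sets, several to 932 and none to 9211, and only the first kind was used, with the brightest probe set per gene. Symbols of 34754 matched a RefSeq gene table (GRCm38.p6), which renamed 0. Animals 6026 and 6030, with an SD of 0.0613 for their log2 difference against at least 0.1221 in other pairs, were averaged; arrays 4019 and 4024 (SD 0.056) were kept. Tests used limma 3.58.1 (lmFit, eBayes; R 4.3.3) and a model of 36 group means over 166 samples with 130 residual degrees of freedom, adjusted by Benjamini-Hochberg within each contrast. The fit was tested on simulated data. All groups entered 1 fit since groups of 3 to 5 animals estimate their own spread poorly.

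The genes and lists were chosen with earlier results of these data known. Besides the selected genes, the receptors, up to 6 genes per list with the largest called wild-type difference, Cyp2b10, Cyp3a11 and the 5 most correlated genes per member were to be named; Cyp2c39 in the knockout, Hells and the intestinal markers were named for their place or list. Alternatives tried were no brightness filter, quantile normalization of the deposited values, the mean over a gene's probe sets and only the compared groups. Further ones were another prior, other handling of near-identical arrays, leaving out animals or days, and leaving out samples high in acinar markers. The number of arrays limits the precision.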

Additional observations from a re-analysis of the deposited data

Results flagged for a closer look

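Cyp2c55 and Cyp2c65 were each checked in every group of 4 or 5 samples, which made 68 sets of values, and 6 of these held an animal far from the rest by Dixon's test, where chance gives about 1 in 20. For Cyp2c55, knockout control 3016 of day 28 had 9.26, against 10.24 to 10.46 in the other 4 animals, and humanized control 5006 of day 7 had 9.06, against 9.64 to 9.83. For Cyp2c65, treated humanized animal 6011 of day 14 had 8.23, against 8.74 to 8.88 in the others. The other 3 were controls at the low end of the scale, namely knockout 3014 of day 14 with 3.27, knockout 3019 of day 28 with 3.80 and wild-type 1010 of day 7 with 3.15.

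Outside the annotated genes, 1 of 9211 probe sets without a gene symbol had a wild-type dosing-day difference at least as large as that of Cyp2c55 (4.39). This probe set, 1443137_at, was higher with phenobarbital over the dosing days by 3.72 in humanized, 0.07 in knockout and 4.84 in wild-type livers. Its 36 group means correlated at r = 0.986 with those of Cyp2c65 and at 0.871 with those of Cyp2c55, over groups that share the treatment. It averaged 7.84 in treated and 4.15 in control humanized livers, and 8.47 in treated and 3.65 in control wild-type livers. On day 119 it averaged 4.34 in the humanized phenobarbital arm and 4.76 in humanized controls, against 3.89 and 3.65 in the wild-type arms. Which transcript it reads was not analysed here.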

How the results depend on the processing

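Of 1178 values of Cyp2c55 and Cyp2c65 under alternatives, 1149 were counted as unchanged. Values with an adjusted p had to keep their direction and their side of the threshold. Values without one, among them all of the untested comparisons, had to move by less than the gene's mean SD within groups. The cause of the other changes was not tested, except that the fit on compared groups only has fewer samples. The wild-type Cyp2c55 effect of day 91 minus day 1 was lost with no brightness filter (−0.87, adjusted p = 0.0644), with the mean over probe sets (−0.87, adjusted p = 0.0528), with only the compared groups (−0.87, adjusted p = 0.221) and without samples high in acinar markers (−0.85, adjusted p = 0.876). Leaving out 1 animal gave −0.99 to −0.73, lost without controls 1001, 1003, 1022, 1023 and 1025 or treated 2001, 2002, 2003, 2004, 2021 and 2023. The same change of Cyp2c65 was lost with only the compared groups (1.82, adjusted p = 0.0716). The humanized day 119 difference of Cyp2c55 passed with near-identical arrays kept apart (−0.63, adjusted p = 0.0319) and without acinar-high samples (−0.72, adjusted p = 0.0357), in a range of adjusted p from 0.0319 to 0.463. Without day 1, treated humanized minus treated wild type for Cyp2c55 was −0.21 (adjusted p = 0.0527). Day 119 differences of Cyp2c65, all between values below the array medians, changed sign without 1 animal: wild-type values ran from −0.0537 to 0.115 (negative without 1028, 1030, 2028 or 2029, at −0.0537, −0.0033, −0.0135 and −0.0179) and knockout values from −0.0090 to 0.0645 (negative without 3029 or 4030, at −0.0018 and −0.0090). The dosing-day difference of Cyp2c65 was 4.79 in humanized and 6.09 in wild-type livers without day 1, and 4.14 and 5.46 without day 28.

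Counts of genes that passed were least steady for single days. For day 91 minus day 1 they were 220 in humanized livers (29 with only the compared groups, 106 without acinar-high samples, 90 without animal 6022) and 55 in wild-type livers (24, 9, and 101 without animal 2005). On day 119 they were 27 in humanized livers (117 with near-identical arrays apart, 0 with only the compared groups or without animal 5029), 14 in knockout livers (0 to 57) and 3 in wild-type livers (0 to 5). The knockout count of 2473 was 1570 without day 28, humanized against knockout controls 2101 became 965 without day 119, and without acinar-high samples control counts of 3541, 2829 and 3531 became 2119, 1586 and 1538. No paired analysis was possible because no 2 groups share an animal number.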
